A study of Mus musculus with 4 samples.

Results

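The mRNAs of 10 genes of the Hippo pathway were followed in mouse embryos cultured with or without a degrader of the transcription factor subunit Nelfb. The genes were the transcriptional coactivators Yap1 and Wwtr1, the DNA-binding factors Tead1, Tead2 and Tead4, the kinases Lats1 and Lats2, the angiomotins Amot and Amotl2, and Cyr61, a gene that Yap1 activates. They were taken by symbol from a table of 18714 genes, each symbol matched a single row, and 9 of the 10 had enough reads to be tested, the exception being Lats2. Both groups were zygotes of the outbred ICR strain, homozygous for the Nelfb dTAG allele like both parents, which had mated naturally, and both were kept in KSOM embryo medium for 30 hours. The treated group received 500 nM dTAG-13, a molecule that joins the tagged protein to a ubiquitin ligase and so leads to its degradation, and the control group received 0.01% DMSO. Each of the 2 libraries per group was made from 3 pooled embryos at the 2-cell stage, and the labels do not say whether pools of a group came from different matings or days, and the p-values therefore reflect the spread between pools alone.

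Hippo signalling is a kinase relay. When it is active, Lats kinases phosphorylate Yap1 and Wwtr1 (also named Taz) and keep them out of the nucleus. When it is inactive, the coactivators enter the nucleus and switch on genes through Tead factors, which bind DNA but activate little by themselves. In the preimplantation mouse embryo the relay later separates outer cells, in which Tead4 and Yap1 drive the trophectoderm programme, from inner cells, in which Amot helps to activate Lats. Yap1 mRNA and protein are supplied by the oocyte, whereas Cyr61 is a secreted matrix protein gene that responds quickly to Yap1 in many cell types.

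The 2 members that passed the test differed in opposite directions. Cyr61 fell to 0 reads in both dTAG-13 libraries, and Wwtr1 rose by 2.57 ± 0.61 on the log2 scale (SE, n = 2 per group). The RefSeq sequences upstream of their start sites, each 250 bases long on the strand of the gene in GRCm38.p6, are shown because these are the members that passed the test; both hold the hexamer GGAATG, the core of the sequence that Tead factors bind. The Cyr61 window is chr3:145649986-145650235 and the Wwtr1 window is chr3:57575911-57576160, both on the minus strand and free of annotated exon bases. Capitals mark the hexamer on either strand (CATTCC when read on the gene's strand in reverse), the TATA box TATAAA on the gene's strand, and the core of the cyclic AMP response element TGACGT on either strand (ACGTCA in reverse).
Cyr61: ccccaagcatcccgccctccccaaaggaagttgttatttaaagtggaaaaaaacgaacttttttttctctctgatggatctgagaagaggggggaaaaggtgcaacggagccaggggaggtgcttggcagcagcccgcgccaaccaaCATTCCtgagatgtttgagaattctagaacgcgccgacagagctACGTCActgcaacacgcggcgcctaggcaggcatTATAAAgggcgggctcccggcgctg
Wwtr1: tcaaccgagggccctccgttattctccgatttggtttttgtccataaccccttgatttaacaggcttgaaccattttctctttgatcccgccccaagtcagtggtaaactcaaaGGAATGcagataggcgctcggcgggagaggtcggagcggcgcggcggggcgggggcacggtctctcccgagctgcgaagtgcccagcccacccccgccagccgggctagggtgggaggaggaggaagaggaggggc
In the Cyr61 window the reverse hexamer began 103 bases before the start site, the response element core 59 bases before it, and the TATA box 25 bases before it. In the Wwtr1 window the hexamer began 136 bases before the start site, and neither of the other motifs was found. Wwtr1 has another RefSeq start site, whose window (chr3:57575877-57576126) is not shown. That window holds 34 annotated exon bases and also 1 hexamer. Among 32851 RefSeq windows of the same length, 12.6% held the hexamer on either strand, 7.59% held TATAAA and 6.47% held the response element core. RefSeq windows were matched for 8 of the 10 members, and 4 of these 8 had the hexamer in at least 1 window (Yap1, Wwtr1, Amotl2 and Cyr61), while Cyr61 alone had TATAAA. Counted in the same way, 10 of the 24 other pathway genes with a window had the hexamer. These counts are per gene, and some genes have more than 1 window, whereas the 12.6% is per window. These are matches of letters, and binding was not measured.

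Expression values are scaled reads, that is reads per gene divided by the authors' size factor for each library. The libraries held between 33897568 and 38112685 reads in genes with dTAG-13 and between 16522506 and 18923479 with DMSO, so that 1 read equals 0.622 to 0.697 scaled reads in the former and 1.20 to 1.62 in the latter. All 9 markers of the 2-cell stage were present in all 4 libraries, with summed levels of 50750 to 62630 scaled reads with dTAG-13 and 157900 to 168600 with DMSO. The tagged gene Nelfb had 182.5 and 69.8 scaled reads with DMSO and 63.4 and 35.6 with dTAG-13, which does not check the labels because dTAG-13 acts on protein. Values are relative to the RNA pool of a library, in which fewer cells of a type and less RNA per cell cannot be told apart. Over all 15978 genes tested with limma, 8.94% were higher and 9.79% lower with dTAG-13 at an adjusted p under 0.05. Against this background 1 of the 9 tested members was higher and 1 lower, and the other 7 did not pass. The median log2 fold change of the 9 was 0.19, beside -0.10 over all genes tested. The authors' deposited table places 7.56% of its genes higher and 8.47% lower at that threshold, with the same members called, Wwtr1 higher and Cyr61 lower.

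**Figure D1:**
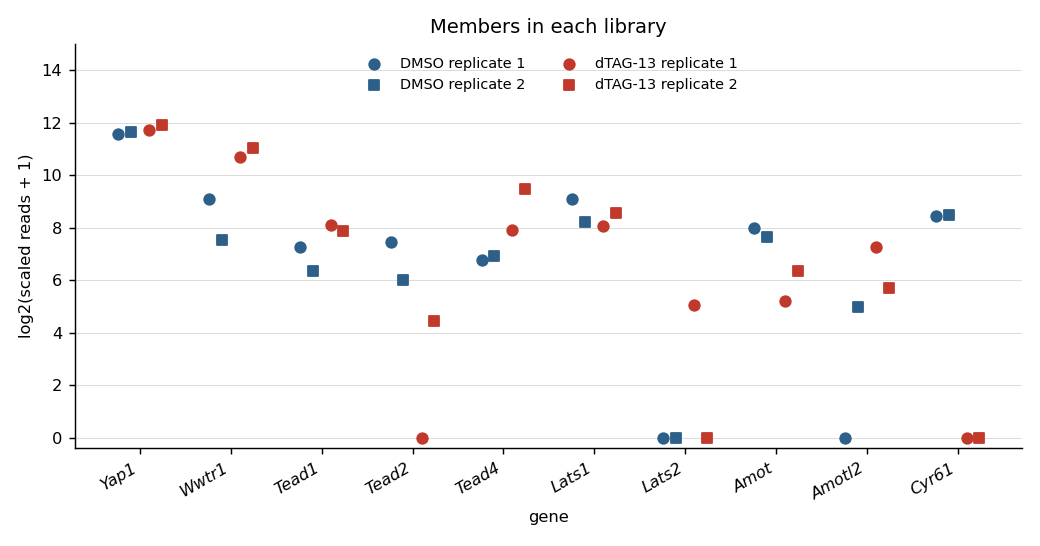
Level of each member in each library as log2(scaled reads + 1), with DMSO libraries in blue and dTAG-13 libraries in red, circles for replicate 1 and squares for replicate 2. Yap1 lies near the same level in all 4 libraries, Wwtr1 is higher in both dTAG-13 libraries, and Cyr61 is at 0 in both dTAG-13 libraries beside 351.8 and 352.2 scaled reads in the DMSO libraries.

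The coactivators were examined first. Yap1 (ENSMUSG00000053110.13, GRCm38 chromosome 9, 7931999 to 8004596, minus strand, 12 merged exons) had 3361 and 3816 scaled reads with dTAG-13 and 3050 and 3243 with DMSO. The dTAG-13 libraries lay above the DMSO libraries by little: its log2 fold change was 0.19 ± 0.25 and did not pass (adjusted p = 0.605, limma). Wwtr1 (ENSMUSG00000027803.14, chromosome 3, 57455649 to 57575910, minus strand, 7 merged exons), which encodes the paralog of Yap1, had 1666 and 2114 scaled reads with dTAG-13 and 548.8 and 181.8 with DMSO. The groups did not overlap, although the DMSO libraries themselves differed widely. The adjusted p of Wwtr1 was 0.0473, close to the threshold, and with any 1 library left out it ranged from 0.0598 to 0.288, with log2 fold changes between 1.77 and 3.36. It was also above 0.05 with edgeR (0.068), a pseudocount of 0.5 (0.0515) and no filter on low values (0.057). In the authors' deposited table the log2 ratio of Wwtr1 was 2.37 with an adjusted p of 0.0447.

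The balance between the 2 coactivators within a library does not depend on how libraries are scaled. Wwtr1 took 33.1% of the reads of the pair in dTAG-13 replicate 1 (95% Wilson interval 32.1 to 34.2%) and 35.7% in replicate 2 (34.6 to 36.7%). It took 15.2% in DMSO replicate 1 (14.0 to 16.6%) and 5.31% in DMSO replicate 2 (4.43 to 6.35%). Both dTAG-13 shares thus lay above both DMSO shares, and the intervals cover counting error only. Per kilobase of merged exon, Yap1 had a mean of 340 scaled reads with DMSO against 76.4 for Wwtr1, placing them at percentiles 85.1 and 65.5 of all genes with a known length. With dTAG-13 the level per kilobase was 388 for Yap1 and 396 for Wwtr1, at percentiles 85.7 and 85.9.

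**Figure D2:**
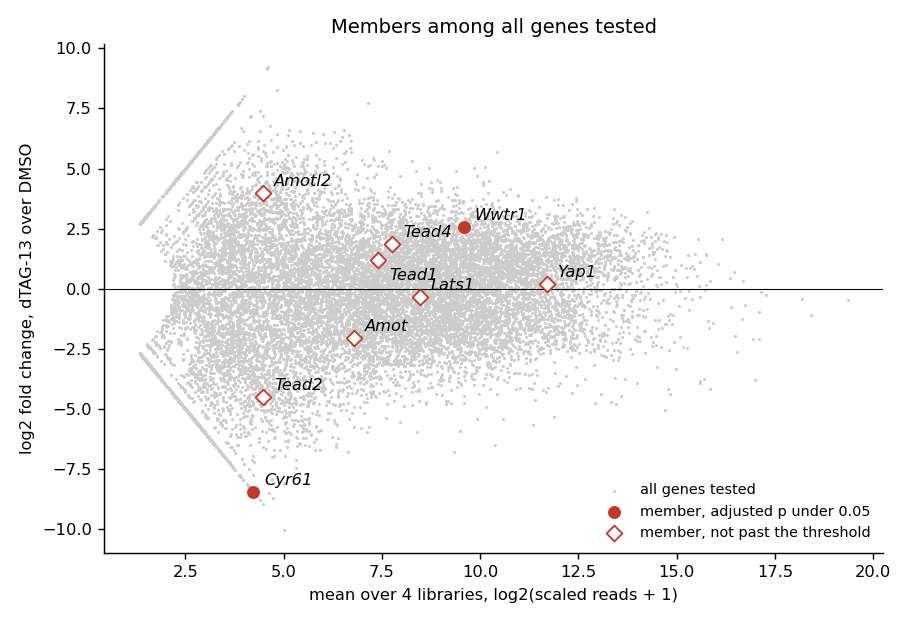
Each grey point is a gene tested, with its mean log2(scaled reads + 1) over 4 libraries on the horizontal axis and its log2 fold change, dTAG-13 over DMSO, on the vertical axis. Red symbols are the 9 tested members, filled where the adjusted p was under 0.05: Wwtr1 at 2.57 and Cyr61 at -8.46, the latter on the lower edge formed by genes with no reads in either dTAG-13 library.

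The Tead factors gave no call in either direction by limma, with 1 of the 3, Tead4, at an unadjusted p under 0.05; edgeR also called none and DESeq2 called Tead4 higher. Tead4 (ENSMUSG00000030353.15, chromosome 6, 128224288 to 128300823, minus strand), the family member required for trophectoderm in the mouse, had 238.9 and 716.2 scaled reads with dTAG-13 and 109.3 and 118.5 with DMSO. All dTAG-13 values were above all DMSO values, and dTAG-13 replicate 2 was the highest. The log2 fold change of Tead4 was 1.85 ± 0.70 (adjusted p = 0.118 by limma and 0.0372 by DESeq2 on recovered reads), and it was 2.64 without dTAG-13 replicate 1 and 1.06 without dTAG-13 replicate 2. Tead1 (ENSMUSG00000055320.16, chromosome 7, 112679318 to 112906807, plus strand), which is broadly expressed, had 275.6 and 236.4 scaled reads with dTAG-13 and 153.7 and 79.5 with DMSO. The log2 fold change was 1.20 ± 0.61 (adjusted p = 0.211), again without overlap between groups.

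Tead2 (ENSMUSG00000030796.15, chromosome 7, 45215753 to 45233644, plus strand), which is active in embryos from early cleavage on, lay in the other direction. It had 0 and 20.9 scaled reads with dTAG-13 and 174.1 and 63.3 with DMSO. The log2 fold change was -4.50 ± 1.79 and did not pass (adjusted p = 0.133). It was -2.28 without dTAG-13 replicate 1, the library without a Tead2 read, and -6.73 without dTAG-13 replicate 2. Of the reads of the 3 Tead genes together, Tead2 took 39.8% in DMSO replicate 1 (Wilson interval 34.9 to 44.9%) and 24.2% in DMSO replicate 2 (18.3 to 31.4%). With dTAG-13 it took 2.15% in replicate 2 (1.51 to 3.05%) and 0 of 827 reads in replicate 1, which allows a share of up to 0.363%. The Tead4 share was 25.0% and 45.3% with DMSO and 46.4% and 73.6% with dTAG-13, and the Tead1 share was 35.2% and 30.4% with DMSO and 53.6% and 24.3% with dTAG-13, so the Tead1 shares overlapped between groups. Per kilobase, the mean DMSO levels of Tead4, Tead2 and Tead1 were 31.7, 24.8 and 8.59 scaled reads, and the mean dTAG-13 levels were 133, 2.18 and 18.9. With DMSO the single libraries of Tead4 (30.4 and 32.9 per kilobase) lay within the spread of Tead2 (36.4 and 13.2). Tead3 was not among the 18714 genes with values and was not analysed here.

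**Figure D3:**
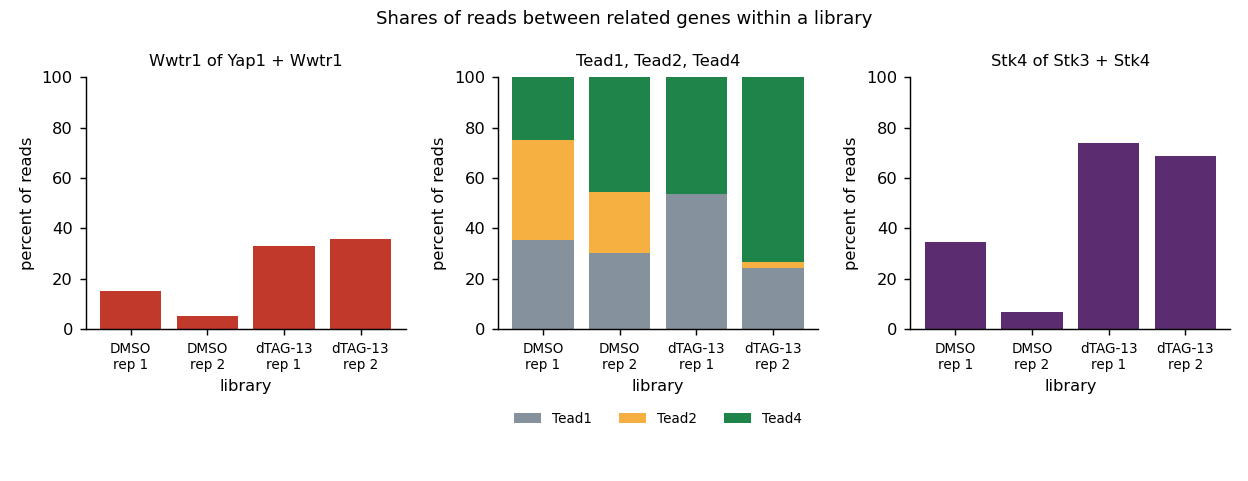
Percent of reads in each library (horizontal axis) that went to Wwtr1 among the reads of Yap1 and Wwtr1, to each of Tead1, Tead2 and Tead4 among their sum, and to Stk4 among the reads of Stk3 and Stk4. The shares are not corrected for gene length and serve to compare libraries: Tead2 takes 39.8% and 24.2% in the DMSO libraries and 0 and 2.15% in the dTAG-13 libraries.

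Of the Lats kinases, which phosphorylate the coactivators, Lats1 was detected in all libraries and Lats2 in 1. Lats1 (ENSMUSG00000040021.12, chromosome 10, 7681214 to 7716460, plus strand) had 266.2 and 373.8 scaled reads with dTAG-13 and 539.2 and 293.8 with DMSO. The groups overlapped, and the log2 fold change of -0.33 ± 0.52 did not pass (adjusted p = 0.661). Lats2 (ENSMUSG00000021959.15, chromosome 14, 57689662 to 57758388, minus strand) had 52 reads in dTAG-13 replicate 1, equal to 32.3 scaled reads, and 0 reads in the other 3 libraries. Its mean was under the minimum for testing, and 2955 of its annotated exon bases are shared with another gene. How reads over shared bases were counted is not known here. A count of 0 allows up to 3 reads, which is 2.09 scaled reads in dTAG-13 replicate 2, 3.60 in DMSO replicate 1 and 4.87 in DMSO replicate 2.

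The angiomotins, junction-associated proteins that bind Yap1 and promote its phosphorylation, pointed in opposite directions without passing. Amot (ENSMUSG00000041688.16, chromosome X, 145446425 to 145505181, minus strand) had 35.5 and 79.5 scaled reads with dTAG-13 and 254.6 and 201.3 with DMSO. Both dTAG-13 values were below both DMSO values, with a log2 fold change of -2.07 ± 0.72 (adjusted p = 0.10; unadjusted p = 0.0343, limma). Amotl2 (ENSMUSG00000032531.15, chromosome 9, 102716672 to 102733418, plus strand), itself a common target of Yap1, had 151.8 and 50.9 scaled reads with dTAG-13 and 0 and 30.8 with DMSO. Its log2 fold change was 3.98 ± 1.93 (adjusted p = 0.193), and without DMSO replicate 1, the library at 0, it was 1.48. Amot took all 212 reads of the pair in DMSO replicate 1 and 86.7% in DMSO replicate 2, and it took 18.9% and 61.0% in the dTAG-13 libraries. Per kilobase both genes were low, Amot at 27.1 and Amotl2 at 2.45 scaled reads with DMSO, against 6.84 and 16.1 with dTAG-13.

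By fitted value Cyr61 differed most among the 9 tested members. Cyr61 (ENSMUSG00000028195.4, also named Ccn1, chromosome 3, 145646976 to 145649981, minus strand, 5 merged exons) had 293 and 217 reads in the DMSO libraries, which are 351.8 and 352.2 scaled reads, and 0 in both dTAG-13 libraries, although these were sequenced more deeply. With 3 reads per library taken as the most that a count of 0 allows, Cyr61 was at least 177.9-fold lower with dTAG-13. The fitted log2 fold change was -8.46 ± 1.06 (adjusted p = 0.0219, limma), a value that depends on the pseudocount and ranged from -9.46 to -5.18 with pseudocounts of 0.5 and 10. In the authors' deposited table the log2 ratio was -8.46 with an adjusted p of 6.51e-07. Without either dTAG-13 library the adjusted p was 0.217 or 0.192, in limma fits that called 0 genes in all, with 3538 and 3906 at an unadjusted p under 0.05. Cyr61 was 1 of 35 genes, 0.219% of those tested, with at least 100 scaled reads in both DMSO libraries and 0 reads in both dTAG-13 libraries. That share is over all 15978 genes tested. These include genes under 100 scaled reads in a DMSO library, which could not meet the condition. The count describes the pattern and is not a test. Per kilobase Cyr61 stood at 174 scaled reads with DMSO, percentile 77.2, above every other member except Yap1.

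Because Cyr61 is also expressed by matrix-producing and ovarian somatic cells, markers of such cells were read beside it. A marker was taken as measured if it was among the 18714 genes with values, all of which had reads in some library. Why the other markers were absent was not tested. Of 12 cumulus and granulosa markers, 5 were measured, with summed levels of 646.5 to 1017 scaled reads with dTAG-13 and 472.4 to 1027 with DMSO. Of 6 fibroblast markers, 4 were measured, with sums of 115.7 to 157.6 with dTAG-13 and 55.24 to 60.06 with DMSO. Of 6 oviduct epithelium markers, 3 were measured, and Epcam, which embryos express themselves, made up nearly all of their sum of 7039 to 7815 with dTAG-13 and 3948 to 4381 with DMSO. Single markers lay in both directions or overlapped between groups. In the cumulus list, Tnfaip6 had 427.3 and 423.3 scaled reads with dTAG-13 and 835.8 and 293.8 with DMSO. Cyp19a1 of that list had 34.21 and 0 against 66.05 and 0, and Col4a1 had 72.16 and 0 against 2.402 and 45.45. Ptx3 of the cumulus list had 0 reads in both dTAG-13 libraries and 34.82 and 50.32 scaled reads with DMSO, and Lum of the fibroblast list had 0 against 51.64 and 40.58. Pdpn of the cumulus list had 483.3 and 223.2 scaled reads with dTAG-13 and 87.66 and 82.79 with DMSO, and Pdgfra of the fibroblast list had 77.75 and 157.6 against 0 and 9.74. Col1a2, a fibroblast collagen, had 33.59 and 0 scaled reads with dTAG-13 and 0 in both DMSO libraries. Col1a1 was at or below 9.74 scaled reads in all 4. Wt1 of the oviduct list had 0 and 11.16 scaled reads with dTAG-13 and 56.44 and 115.3 with DMSO. Ovgp1 of the same list had 138.7 and 106 against 117.7 and 0. The part of other cell types in the Cyr61 difference was not tested.

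Counted without a test, 5 of the 9 tested members had both dTAG-13 libraries above both DMSO libraries (Yap1, Wwtr1, Tead1, Tead4 and Amotl2) and 3 had both below (Tead2, Amot and Cyr61). Over all genes tested the shares were 32.2% above and 34.5% below, so that a lack of overlap was common.

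The rest of the pathway was described from a list of 36 other genes, of which 30 were in the table and 29 were tested. Of these, 5 were higher and 5 lower, whereas 19 stayed short of the threshold, and the median of their log2 fold changes was -0.40. Over all genes tested 8.94% were higher and 9.79% lower. With 1 library left out, 0 to 2 of these 10 calls held, and 6 held with edgeR. The 7 measured inhibitors of the kinases had 3 members higher and 4 that did not pass by limma, beside 8.94% higher over all genes tested. For these inhibitors edgeR called 2 higher and DESeq2 called 5. Over all 15978 genes tested, edgeR called 1026 higher and DESeq2 called 2406. The DESeq2 count thus stands beside a larger background than that of limma. None of the 7 inhibitors was lower by limma, also at an unadjusted p under 0.05, or by edgeR or DESeq2. Slmap, an adaptor that recruits a phosphatase complex to the kinases Stk3 and Stk4, had 3542 and 3264 scaled reads with dTAG-13 and 523.6 and 397.7 with DMSO. It rose by 2.89 ± 0.32 on the log2 scale (adjusted p = 0.0219). Ajuba, a LIM protein that restrains Lats, rose by 2.33 ± 0.43, from 178.6 ± 18.3 to 914.4 ± 204.0 scaled reads (mean ± SD, n = 2). Strn3, a scaffold of the same phosphatase complex as Slmap, rose by 1.45 ± 0.32 (adjusted p = 0.0413, limma; 0.0529 with edgeR and 0.0501 with no filter on low values). Limd1, another LIM protein named after its value was seen, was the 1 inhibitor with a negative value, -1.40 ± 0.58 (adjusted p = 0.144). The median over the 7 inhibitors was 2.33, beside -0.10 over all genes tested.

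The kinases above Lats were split. Stk4 (Mst1) had 884.5 and 995.2 scaled reads with dTAG-13 and 281.0 and 199.7 with DMSO, and rose by 1.98 ± 0.41. The adjusted p of Stk4 was 0.0378 with limma, 0.0502 with edgeR and 0.115 in the authors' deposited table. Stk3 (Mst2), its paralog, had 315.4 and 454.0 with dTAG-13 and 535.6 and 2756 with DMSO. The resulting log2 fold change of -1.68 ± 0.84 did not pass by limma (adjusted p = 0.202), while the adjusted p in the authors' deposited table was 0.00339. It was -0.50 without DMSO replicate 2, the library with the highest Stk3 level, and -2.86 without DMSO replicate 1. Within libraries, Stk4 took 73.7% and 68.7% of the reads of the pair with dTAG-13 and 34.4% and 6.75% with DMSO. The adaptors Sav1 (-0.98 ± 1.24), Mob1a (0.53 ± 0.32) and Mob1b (-0.40 ± 0.38 on the log2 scale) did not pass. Of the annotated exon bases of Sav1, 1336 are shared with another gene.

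Upstream, Nf2, the membrane protein Merlin that brings Lats to the kinases, had 3040 and 2316 scaled reads with dTAG-13 and 899.4 and 478.9 with DMSO. It rose by 2.01 ± 0.43 (adjusted p = 0.0388, limma; 0.0506 with edgeR). Wwc2, a Kibra family scaffold, fell by 1.86 ± 0.33, from 8315 ± 1572 to 2315 ± 701.2 scaled reads (adjusted p = 0.029, limma). However, its log2 fold change was 0.53 when libraries were scaled on oocyte transcripts. Of the annotated exon bases of Wwc2, 995 are shared with another gene. Amotl1, the remaining angiomotin, had 0 reads in both dTAG-13 libraries and 97.3 and 29.2 scaled reads with DMSO. Its DMSO mean was thus at least 32.0-fold above the dTAG-13 level. That bound covers the count of 0 only and leaves out the difference between the DMSO pools. The adjusted p of Amotl1 was 0.0498 with limma, 0.0707 with edgeR and 0.193 in the authors' deposited table. The other 7 upstream genes tested did not pass.

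Of the other nuclear partners and targets on the list, 2 of 3 partners and 1 of 4 targets were lower by limma. Over all genes tested, 9.79% were lower and 8.94% higher by limma. Under the authors' scaling, none of these partners and targets was higher by limma, edgeR or DESeq2 or at an unadjusted p under 0.05. Among so few genes, a lack of higher calls by limma is close to that 8.94%. Of the Vestigial-like cofactors, which compete with Yap1 for Tead, Vgll3 had 0 reads in both dTAG-13 libraries (adjusted p = 0.0348, limma). With DMSO it had 56.4 and 188.3 scaled reads, and their mean was at least 61.8-fold above the dTAG-13 level. This bound also leaves out the difference between the DMSO pools. Vgll4 had 1 read over both dTAG-13 libraries and 173 over both DMSO libraries, a ratio of DMSO over dTAG-13 of 363 from the reads pooled over each group and corrected for library size, with an exact 95% interval from 64.3 to 14427 that covers counting error only (adjusted p = 0.0304). Vgll1, named after its values were seen, had 0 and 70.4 scaled reads with dTAG-13 and 110.5 and 154.2 with DMSO and did not pass (adjusted p = 0.233). Ctgf, a Yap1 target of the same matrix protein family as Cyr61, had 24.3 and 0 scaled reads with dTAG-13 and 210.1 and 60.1 with DMSO. The log2 fold change was -4.50 ± 1.86 without passing (adjusted p = 0.143), and 665 of its exon bases are shared with another gene, which unstranded reads cannot separate. Gata3, a trophectoderm factor, had 62.2 and 108.1 scaled reads with dTAG-13 and 259.4 and 220.8 with DMSO (log2 fold change -1.53 ± 0.62, adjusted p = 0.137). Tgfb2, a growth factor gene, fell by 2.23 ± 0.37, from 25857 ± 11646 to 5269 ± 785.0 scaled reads (adjusted p = 0.0272), and had a log2 fold change of 0.17 when libraries were scaled on oocyte transcripts. Cdx2 was not among the 18714 genes with values and was not analysed here.

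**Figure D4:**
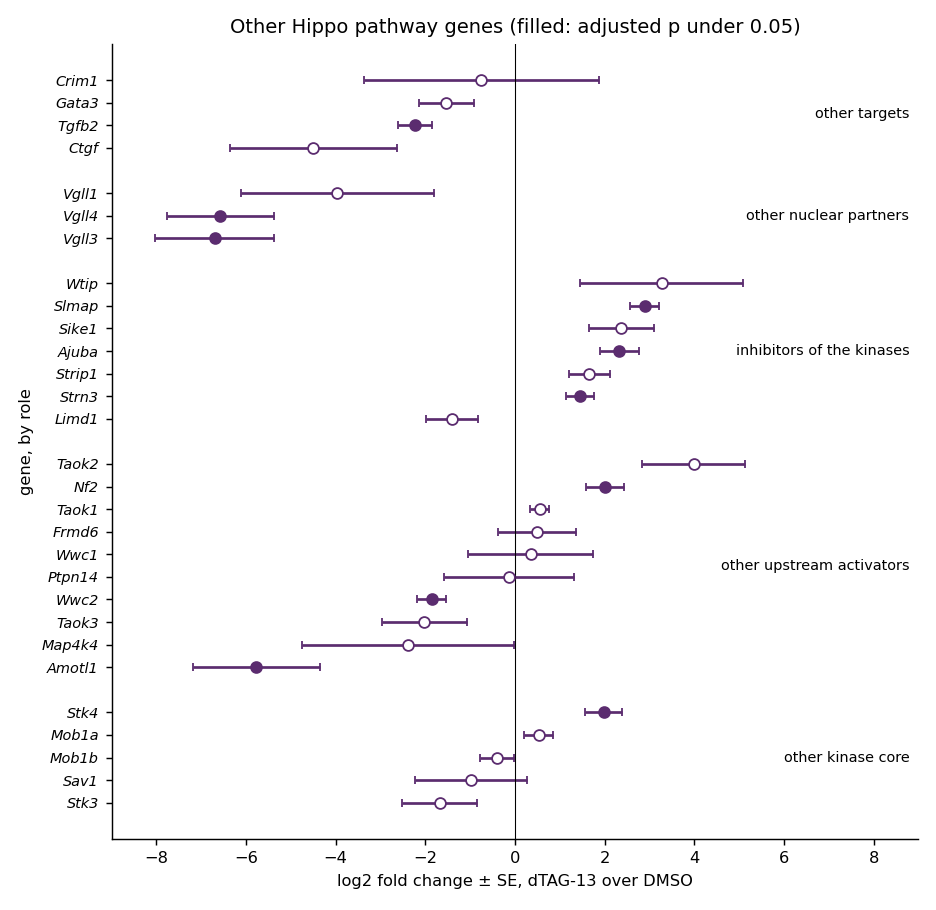
Log2 fold change, dTAG-13 over DMSO, with its standard error for the 29 other pathway genes tested, grouped by role, filled where the adjusted p was under 0.05. The 3 filled inhibitors of the kinases lie at positive values up to 2.89 (Slmap), and the 2 filled nuclear partners, Vgll3 and Vgll4, lie at -6.70 and -6.57.

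Directions depend on the scaling of the libraries. With the libraries brought to equal levels of 39 oocyte transcripts, the median over all genes tested shifted from -0.10 to 2.19 (log2). Under this scaling 6 of the 9 tested members were higher and 1 lower, beside 6922 higher and 343 lower of all 15978 genes. Relative to that median, Wwtr1 (4.96) and Tead4 (4.24) still lay above it, Yap1 (2.58) and Lats1 (2.06) lay near it, and Amot (0.30) and Tead2 (-2.98) lay below it. Cyr61 had a log2 fold change of -7.72 and remained the member that was lower. Scaling on the 13 mitochondrially encoded genes put that median at 0.80, and limma then called 0 genes of all tested, with 5551 at an unadjusted p under 0.05. Under that scaling Wwtr1 was at 3.51 (adjusted p = 0.0737) and Cyr61 at -8.11 (adjusted p = 0.0627).

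**Figure D5:**
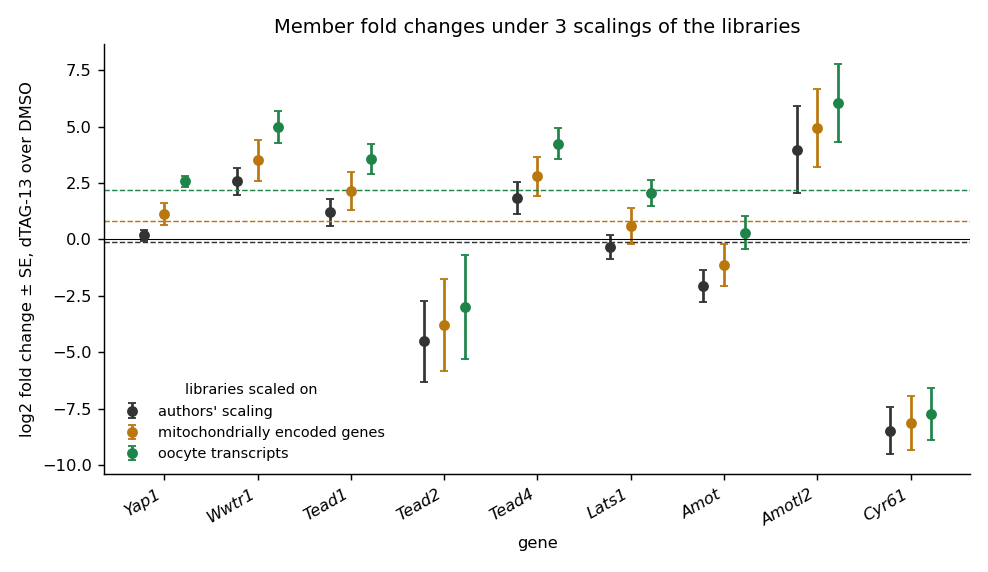
Log2 fold change with its standard error for the 9 tested members under the authors' scaling (black), scaling on mitochondrially encoded genes (orange) and scaling on oocyte transcripts (green). Dashed lines give the median of all genes tested under each scaling, at -0.10, 0.80 and 2.19; Lats1 and Amot change sign between scalings, whereas Wwtr1 stays above 0 and Cyr61 below it under all 3.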

How the data were processed

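RNA was sequenced from 4 pools of 2-cell embryos after SMART-seq v4 amplification of polyadenylated RNA, without strand information, per the labels' protocols. Groups and replicate numbers come from the labels, and columns were matched by treatment and number. The submitters' processing notes name build mm10, bcl2fastq, Picard, HTSeq and DESeq; the aligner is not given in the sources used here. Each deposited signal value is reads divided by a size factor per library. Of the values, 100% were whole reads after division by the value of 1 read (tolerance 1e-04 reads). On these reads edgeR 4.0.16 called 1026 genes higher and 1146 lower. In the authors' deposited table the p-value and log2 columns compare treated with DMSO.

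The test was limma 3.58.1 (R 4.3.3) on log2(scaled reads + 1), for genes whose mean reached 10 (lmFit, eBayes with trend, two-sided, Benjamini-Hochberg over all genes tested, threshold 0.05). Fold changes are on that scale, and errors are standard errors. Alternatives were DESeq2 1.42.0, edgeR, other pseudocounts, filters and scalings, a replicate block, and each library left out. The fits were tested on simulated data. The simulation gave all genes the same set spread, so it does not measure how often calls on these pools are wrong. Members and lists were chosen with earlier results of these data known. All members are named, as are the other pathway genes past the threshold and 10 fixed genes. Exon lengths and overlaps are from GENCODE M21 (GRCm38), matched by gene ID without version for 18625 of 18714 genes. Intervals and floors cover counting error only.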

Additional observations from a re-analysis of the deposited data

How the results depend on the processing

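Counts of calls rested on all 4 libraries and on the scaling. With 1 library left out, where the lone pool of a group is assumed to vary like the other group, limma called 0 to 323 genes higher and 0 to 701 lower, beside 1428 and 1565 in the main test; members higher were 0 in all 4 such fits, members lower 0 to 1, other pathway genes higher 0 to 2 and lower 0 to 2. DESeq2 called 2406 genes higher and 2650 lower, 2 members higher and 8 other pathway genes higher; edgeR called 0 members and 2 other pathway genes higher. No filter on low values and a pseudocount of 0.5 each left 0 members higher. A minimum mean of 50 gave 8 other pathway genes higher. Scaling on oocyte transcripts gave 6922 genes higher and 343 lower, 6 members higher, and 11 other pathway genes higher and 3 lower. Scaling on mitochondrially encoded genes gave 0 calls of either direction for all genes, members and other pathway genes by limma, with 5 members and 14 other pathway genes at an unadjusted p under 0.05.

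The replicate block gave 8 other pathway genes higher, 1855 genes higher and 1832 lower. The pairing is by number only. The log2 difference between replicates with dTAG-13 and that with DMSO had a correlation of -0.014 over genes. Of the members, Amot turned to 0.30 under the oocyte scaling, and Lats1 turned to 2.06 under it and to 0.61 under the mitochondrial scaling; with 1 library left out Lats1 lay between -0.77 and 0.10, the latter without DMSO replicate 1. Of the 10 other pathway genes called, Wwc2 and Tgfb2 turned sign under the oocyte scaling, and none did in the remaining alternatives that tested it. The cause of these shifts was not tested. Values at 0 reads are limited by the floor of 3 reads, which is higher in the less deeply sequenced DMSO libraries (3.60 and 4.87 scaled reads) than with dTAG-13 (1.87 and 2.09).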
